A study of Mus musculus with 29 samples.

Results

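The 10 genes described here are markers of endothelial identity, namely Pecam1, Cdh5, Tek, Tie1, Kdr, Eng, Vwf, Egfl7, Emcn and Plvap. They were taken as a list of gene symbols, each of which matched 1 Ensembl gene of the 56748 in the deposited count table, and all 10 passed the filter on low counts that left 12353 genes for testing. Plvap was chosen by measured values, namely its normalized counts at 22 weeks, in which its response to dietary restriction had been seen to differ between the 2 genotypes, and the other 9 were chosen to compare it with. All differences of Plvap at 22 weeks or with age, and the genotype by diet estimates of all 10 genes, are therefore given as descriptions without a test. The other 9 genes and the gene lists used further on were also chosen with earlier results of these data known. Their tests may therefore not be independent of that choice.

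RNA came from the aortic arch of 29 mice, with 1 library per mouse, and 28 libraries were used. Wild type (WT) littermates (Ercc1 +/+) and mutant Ercc1Δ/- mice shared an F1 C57BL6J/FVB hybrid background. Ercc1 acts in DNA repair, and in the mutants 1 allele was null while the other gave a truncated, partly active protein, in all tissues. Mice fed ad libitum (AL) were killed at 6 or 22 weeks of age, with 5 WT and 5 Ercc1Δ/- samples at 6 weeks and 4 and 4 at 22 weeks. Mice on dietary restriction (DR), with 5 samples per genotype, received less food from 7 weeks onward, reached 30% restriction from 9 weeks and were killed at 22 weeks. Each group held both sexes, and all mice ate AIN93G pellets, were housed individually and were perfused with buffer before the arch was taken.

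Endothelial cells form the single-cell lining of every vessel, hold together through adherens junctions and read out growth factors from blood and the vessel wall. In a large artery this lining is thin beside the muscular media, and further endothelium is supplied by the small vessels of the adventitia and of any attached fat. In bulk tissue a lower count of such genes can come from fewer endothelial cells or from less RNA of the gene per cell, and these cannot be told apart here.

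The members hold different roles. Pecam1 (PECAM-1, CD31) and Cdh5 (VE-cadherin) are adhesion molecules of the cell contacts. Tek (Tie2) is the receptor of the angiopoietins, Tie1 is its partner receptor, Kdr is VEGF receptor 2, and Eng (endoglin) is a co-receptor for ligands of the TGF-beta and BMP family. Vwf is the secreted clotting protein stored in endothelial granules, and Egfl7 is a secreted matrix protein of endothelium. Emcn (endomucin) is a sialomucin typical of capillaries and veins, and Plvap forms the diaphragms of endothelial pores and caveolae. Pecam1 is also made by leukocytes and platelets, Vwf by megakaryocytes, and Eng by some macrophages and stromal cells.

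The genes lie on 7 chromosomes of GRCm39. Tek (94627291 to 94763224, plus strand) and Tie1 (118328385 to 118347261, minus strand) are both on chromosome 4. Eng (32535543 to 32574661) and Egfl7 (26468286 to 26486789) are both on the plus strand of chromosome 2. Plvap (71948674 to 71964506, minus strand) and Cdh5 (104828231 to 104871143, plus strand) are both on chromosome 8. Pecam1 is on chromosome 11 (106543689 to 106641454, minus strand), Kdr on chromosome 5 (76093487 to 76139884, minus strand), Vwf on chromosome 6 (125523737 to 125663642, plus strand) and Emcn on chromosome 3 (137046794 to 137138999, plus strand).

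The 250 bases before the annotated start of the canonical transcript were read from GRCm39 for 4 members. Plvap is shown as the gene with the largest difference in diet response, Tie1 as the gene that varied most closely with the others between mice, Vwf as a second gene of that group, and Kdr as the gene that varied apart from them. Capitals mark AGGAAG, a form of the core bound by ETS factors, or its reverse complement CTTCCT.
Tie1 (chr4:118347259-118347508, minus strand): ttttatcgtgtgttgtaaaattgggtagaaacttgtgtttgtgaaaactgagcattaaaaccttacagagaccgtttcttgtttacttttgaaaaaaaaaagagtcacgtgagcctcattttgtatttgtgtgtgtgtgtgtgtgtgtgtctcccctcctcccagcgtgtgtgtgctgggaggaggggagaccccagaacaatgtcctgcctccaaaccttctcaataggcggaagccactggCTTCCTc
Vwf (chr6:125529661-125529910, plus strand): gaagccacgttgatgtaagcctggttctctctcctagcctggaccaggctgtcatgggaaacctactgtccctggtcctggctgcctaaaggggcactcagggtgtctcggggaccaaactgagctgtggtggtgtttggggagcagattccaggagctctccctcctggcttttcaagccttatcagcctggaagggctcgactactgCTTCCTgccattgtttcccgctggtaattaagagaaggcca
Kdr (chr5:76139119-76139368, minus strand): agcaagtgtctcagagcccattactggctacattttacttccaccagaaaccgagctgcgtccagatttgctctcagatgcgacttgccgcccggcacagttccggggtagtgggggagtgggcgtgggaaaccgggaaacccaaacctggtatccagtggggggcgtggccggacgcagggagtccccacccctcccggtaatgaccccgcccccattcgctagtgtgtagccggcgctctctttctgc
Plvap (chr8:71964507-71964756, minus strand): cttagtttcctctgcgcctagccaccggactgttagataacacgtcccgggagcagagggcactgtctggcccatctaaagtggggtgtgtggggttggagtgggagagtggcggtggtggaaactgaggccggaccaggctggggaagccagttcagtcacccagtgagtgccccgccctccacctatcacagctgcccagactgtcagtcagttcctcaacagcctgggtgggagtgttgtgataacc

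These letters occurred in the windows of 3 of the 10 members, which were Tie1, Vwf and Emcn, against 28.9% of the same windows of 21770 protein-coding genes. In a list of 20 other pan-endothelial genes, 12 windows held them. In Tie1 the match lay 7 to 2 bases before the start, and in Vwf 41 to 36 bases before it, both on the opposite strand. The GATA motif AGATAA (either strand) was found in Plvap alone (9.60% of all windows), and the GC box GGGCGG (either strand) in Cdh5, Kdr and Plvap (36.3% of all windows), with 2 matches in Kdr. None of the 10 windows held TATAAA on either strand, which 11.9% of all windows did. The members thus shared none of the 4 motifs searched, including the 6 genes that moved together between mice (described further on).

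Totals of counts on genes ran from 921167 to 9616382 per sample. Sample 003, a WT AL mouse of 22 weeks, was left out. It held 400410 counts, with between 2 (Emcn) and 104 (Pecam1) on the members. Every Ercc1Δ/- sample of 22 weeks held fewer counts than every WT sample on the same diet (1294980 to 3855444 against 3903589 to 9616382 on AL, and 921167 to 2572523 against 2660422 to 6124471 on DR), so depth moved with genotype there. Ercc1 itself was lower in the mutants at each age and diet (log2 fold changes of -1.41 ± 0.18 at 6 weeks, -0.97 ± 0.20 on AL and -1.01 ± 0.19 on DR, standard error). The tissue was mostly smooth muscle by its RNA: Myh11 and Acta2 ranked 2 and 5 by mean normalized count among the tested genes, whereas Pecam1 ranked 229 and Emcn 9950. Normalized counts are counts scaled by TMM factors to the mean library of 3683502.

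Several mice stood apart over many members. In the Ercc1Δ/- group at 6 weeks, sample 008 had the highest value for 7 of 10 members and sample 023 the lowest for 8. Among WT mice on DR, sample 028 had the lowest value for 8 of 10. In AL-fed Ercc1Δ/- mice at 22 weeks both females (samples 004 and 005) lay above both males (samples 013 and 026) for 8 of 10 members, all but Kdr and Eng, and the females were also the deeper libraries (3855444 and 3351172 counts against 1294980 and 1433979). The part of sex and of depth in that split was not tested. In no other group were females higher than males for more than 4 members. Egfl7, however, was higher in every female than in every male in each group of 22 weeks. The same was true of Plvap in each of these groups but WT mice on DR. The WT AL group of 22 weeks held 1 female.

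Levels between genes were compared as normalized counts per kilobase of the canonical transcript, over the 28 samples. The counts cover the whole gene body, so reads from introns can add to them and this scale is approximate. Pecam1 was the most abundant at 523 ± 156 per kilobase (SD, n = 28), above Eng in all 28 samples. Eng followed at 162 ± 24.1 and lay above Vwf in all 28. The next 5 genes had overlapping spreads: Vwf 71.1 ± 27.0, Cdh5 65.1 ± 20.9, Egfl7 64.9 ± 19.9, Tie1 57.9 ± 20.3 and Plvap 54.9 ± 21.2 per kilobase, with each one above the next in 13 to 20 of the 28 samples. Only neighbours in this order were compared within samples. The order also depends on the length used, since Egfl7 has 1459 bases in its canonical transcript but 8003 over all its annotated exons. Plvap lay above Tek in all 28. Tek (24.5 ± 7.42) and Kdr (21.7 ± 10.2) again overlapped, with Tek higher in 15 of 28, and Emcn was the lowest at 12.9 ± 6.69. Emcn is also the least well measured, with a median of 28.5 raw counts and 1 count in its lowest sample. Eng varied least between the 28 mice (coefficient of variation 14.9%), Emcn (52.0%) and Kdr (47.0%) the most, and the other 7 between 29.8% and 38.6%.

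**Figure D1:**
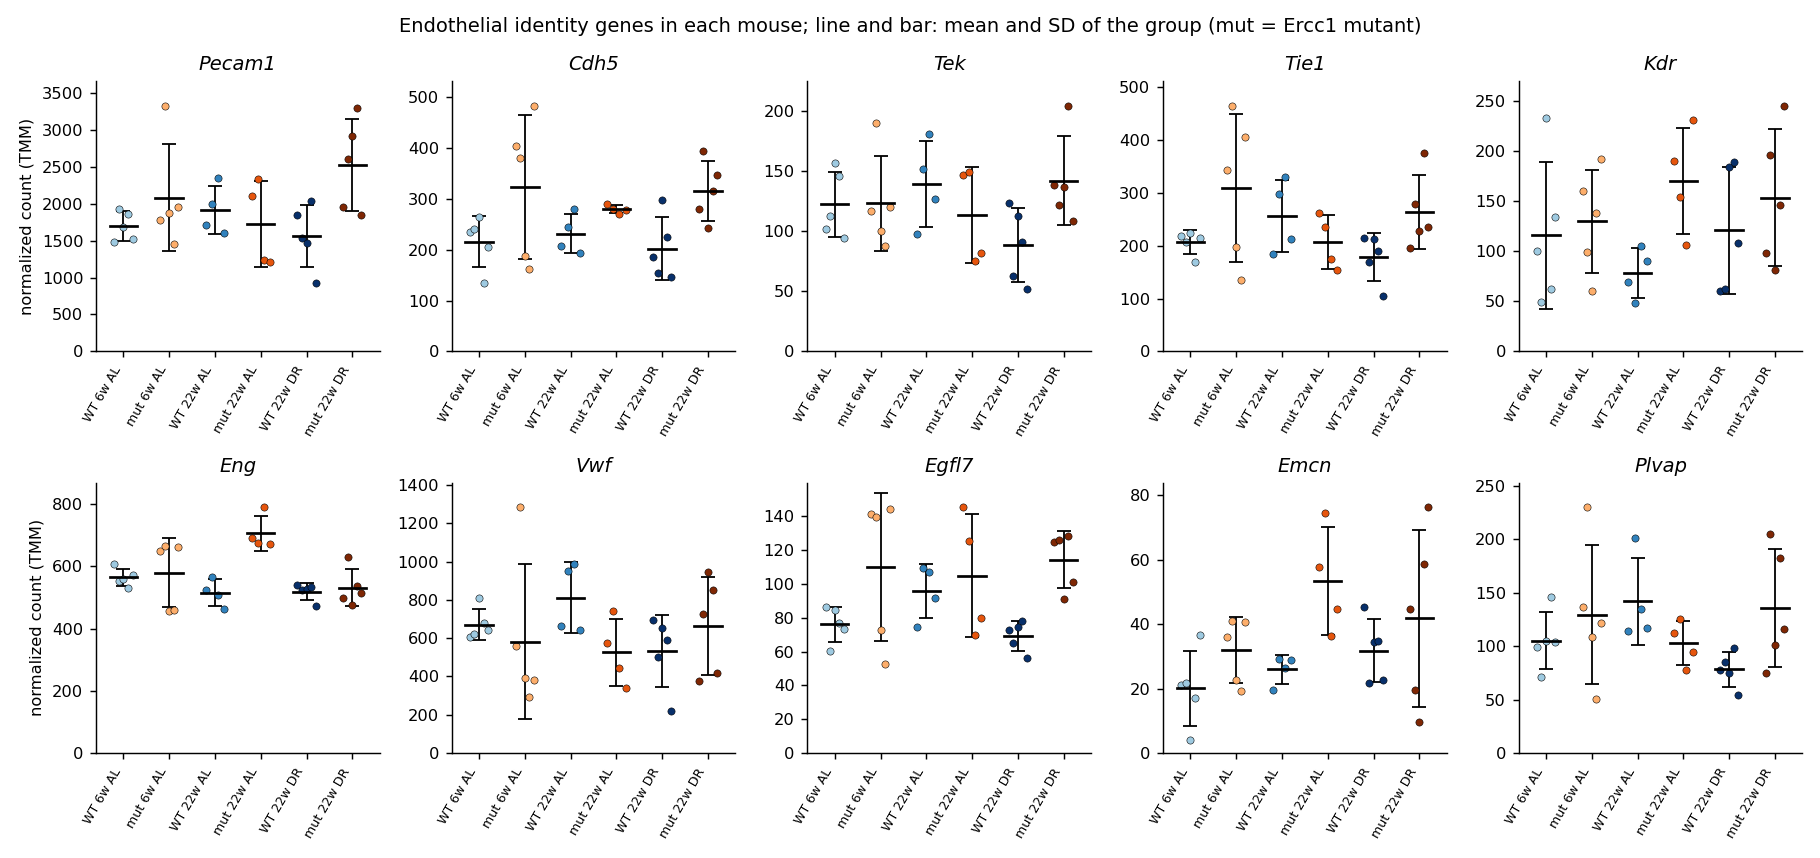
Normalized counts (TMM, linear axis from 0) of the 10 endothelial identity genes in each of 28 mice, in 6 groups (WT and Ercc1 mutant, 6 and 22 weeks, AL and DR), with the group mean as a line and the SD as a bar. In the Egfl7 panel the 5 mutant DR mice (91.2 to 128) lie above the 5 WT DR mice (56.0 to 77.9), and in the Eng panel the 4 mutant AL mice of 22 weeks (672 to 789.7) lie above the 4 WT mice (461 to 566).

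At 6 weeks, before restriction began, AL-fed Ercc1Δ/- and WT mice were compared. None of the 10 members passed the test (edgeR quasi-likelihood F test with Benjamini-Hochberg adjustment over 12353 genes, called where the adjusted p did not exceed 0.05 and the change reached 1.2-fold), against 1.70% of all tested genes. The estimates were positive for 9 of 10, with a median of 0.33 on the log2 scale beside 0.02 for all genes, and 2 members had an unadjusted p under 0.05. DESeq2 also called none. Tie1 had the largest estimate of the 10. It measured 168, 206, 215, 218 and 225 normalized counts in WT and 135, 198, 343, 407 and 466 in Ercc1Δ/- mice, so that 3 mutants lay above and 1 below all WT mice (log2 fold change 0.59 ± 0.29, adjusted p = 0.41). Cdh5 (0.59 ± 0.27, adjusted p = 0.36) and Egfl7 (0.57 ± 0.26, adjusted p = 0.36) had the same shape, with samples 023 and 015 low and the other 3 mutants high. Without sample 023, 2 members passed, Tie1 (0.80, adjusted p = 0.033) and Egfl7 (0.77, adjusted p = 0.039).

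At 22 weeks on AL, 2 of the 9 members other than Plvap were higher in Ercc1Δ/- mice and none was lower, against 12.0% of all tested genes called in either direction and 5.88% called higher. The 2 were Eng and Emcn. Eng measured 461, 507, 525 and 566 normalized counts in WT mice and 672, 674, 689.9 and 789.7 in Ercc1Δ/- mice. All 4 mutants lay above all 4 WT mice, by 1.37-fold in the fit (log2 fold change 0.45 ± 0.12, adjusted p = 0.017, edgeR). Emcn measured 19.4, 26.5, 28.9 and 29.0 in WT and 36.3, 44.8, 57.7 and 74.6 in Ercc1Δ/- mice. The groups again did not overlap and the fitted difference was 1.96-fold (0.97 ± 0.28, adjusted p = 0.026), on raw counts of 13 to 76.

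Kdr behaved like them in its values but did not pass the test. WT mice had 47.9, 69.9, 90.8 and 105 normalized counts of Kdr and Ercc1Δ/- mice 106, 154, 190.3 and 231, so the groups only just failed to meet (log2 fold change 1.1 ± 0.44, adjusted p = 0.13). Groups that did not overlap were seen for 3 of 9 members, against 18.6% of all tested genes. The remaining members showed no common direction. Vwf had an estimate of -0.79 ± 0.35 (adjusted p = 0.16), with 644, 662, 953 and 989 normalized counts in WT and 341, 444, 575 and 744 in Ercc1Δ/- mice. Pecam1 (-0.26), Tek (-0.34) and Tie1 (-0.34) had negative estimates and Cdh5 (0.29) and Egfl7 (0.15) positive ones, with adjusted p between 0.41 and 0.78. The median over the 9 was 0.15, beside 0.03 for all genes. Plvap had an estimate of -0.54 ± 0.32.

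Both calls at 22 weeks on AL rest on few mice. Eng was lost without Ercc1Δ/- sample 013 (0.39, adjusted p = 0.064) or WT sample 025 (0.41, adjusted p = 0.060), and Emcn without Ercc1Δ/- sample 004 or 005 or WT sample 012 or 018 (0.80 to 0.99, adjusted p between 0.053 and 0.12). After thinning of all libraries to 921167 counts, Eng passed alone. Vwf passed as a lower gene, which made 3, without Ercc1Δ/- sample 023 of 6 weeks, which shares the fit (-0.86, adjusted p = 0.039). Markers of other cells moved between these groups too. In this comparison 12.0% of all tested genes were called in either direction and 5.88% were called higher. The sum of 5 macrophage markers (Cd68, Adgre1, Csf1r, C1qa and Mrc1) was 818 to 1579 in Ercc1Δ/- and 443 to 646 in WT mice, with 4 of 5 called higher, that of 7 fat cell markers was 943 to 7227 against 1227 to 1771, with none called, and that of 6 heart muscle markers was 612 to 1289 against 324 to 792. Of the 4 heart muscle markers tested, Tnnt2 was called higher (1.96 ± 0.49, adjusted p = 0.018) and the other 3 had negative estimates that did not pass. Smooth muscle markers were lower (5 of 6 called), with sums of 61407 to 95200 in Ercc1Δ/- and 116679 to 140032 in WT mice. Their part in the Eng, Emcn and Kdr values was not tested.

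At 22 weeks on DR, 4 of the 9 members were higher in Ercc1Δ/- mice and none was lower, against 13.0% of all tested genes called in either direction and 5.97% called higher. These were Egfl7, Cdh5, Pecam1 and Tie1. All 9 estimates were positive, with a median of 0.57 beside 0.00 for all genes, of which 50.6% were positive.

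Egfl7 measured 56.0, 65.3, 72.8, 74.2 and 77.9 normalized counts in WT mice on DR and 91.2, 101, 125, 126 and 128 in Ercc1Δ/- mice. Every mutant was above every WT mouse, by 1.65-fold in the fit (log2 fold change 0.72 ± 0.15, adjusted p = 0.0013, edgeR). Egfl7 was the 1 member of 9 whose groups did not overlap, as was the case for 8.27% of all tested genes.

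Cdh5 measured 147, 154, 186, 224 and 297 in WT and 242, 280.0, 316, 347 and 394 in Ercc1Δ/- mice on DR. WT sample 017 (297) reached into the mutant range, and 3 mutants lay above all WT mice (0.65 ± 0.14, adjusted p = 0.0024). Pecam1 measured 923, 1472, 1543, 1851 and 2034 in WT and 1850.0, 1955, 2609, 2924 and 3303 in Ercc1Δ/- mice. The top 3 mutants were above all WT mice and the other two lay within the WT range (0.69 ± 0.20, adjusted p = 0.037). Tie1 measured 105, 169.8, 189, 213 and 215 in WT and 195, 228, 236, 279 and 376 in Ercc1Δ/- mice, with 4 of 5 mutants above all WT mice (0.57 ± 0.18, adjusted p = 0.046).

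Tek, the partner of Tie1, had as large an estimate but did not pass (0.69 ± 0.23, adjusted p = 0.058). It measured 52.3, 62.4, 91.1, 113 and 124 in WT and 109, 122, 137, 139 and 205 in Ercc1Δ/- mice. Emcn (0.50 ± 0.32, adjusted p = 0.36), Kdr (0.38 ± 0.39, adjusted p = 0.60) and Vwf (0.32 ± 0.30, adjusted p = 0.56) had positive estimates that did not pass. In Emcn the mutants spread from 9.60 to 76.2, so that 2 lay above and 2 below all WT mice. Eng was nearly equal, with 471 to 539 in WT and 475 to 629.7 in Ercc1Δ/- mice (0.03 ± 0.08, adjusted p = 0.89). Plvap had an estimate of 0.78 ± 0.16, from 54.1, 74.9, 78.2, 85.6 and 98.3 in WT to 75.3, 101, 116, 183 and 205 in Ercc1Δ/- mice, and 4 of 5 mutants lay above all WT mice.

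The count of 4 was sensitive to the fit. Pecam1 and Tie1 did not pass, leaving 2 members, without Ercc1Δ/- sample 016 or 022 or WT sample 017 or 028, with no sex term, with sample 003 added, or with no filter on low counts. Cdh5 and Tie1 did not pass with all 6 groups in 1 fit, which also left 2. DESeq2 called 5 members, Tek being the fifth, and 3 passed after thinning to 921167 counts. Tie1, the call nearest to the threshold, was lost without any of 13 of the 18 samples in the fit. Egfl7 passed in all of these. Between the genotypes on DR, 13.0% of all tested genes were called in either direction and 5.97% were called higher. Smooth muscle markers were lower in the same comparison (6 of 6 called, for example Cnn1 with -0.79 ± 0.10). Their summed level was 86035 to 92966 in Ercc1Δ/- and 121019 to 157346 in WT mice. The summed level of 6 heart muscle markers was 759.6 to 2075 against 328 to 627, with Tnnt2 called higher and Nppa at 0 in 26 of the 28 samples. That of the 5 macrophage markers was 541 to 1132 against 274 to 504, with 2 called higher and all 5 estimates positive. That of 5 red blood cell genes was 177 to 3247 against 117 to 874, with none called. The part of these in the endothelial differences was not tested.

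**Figure D2:**
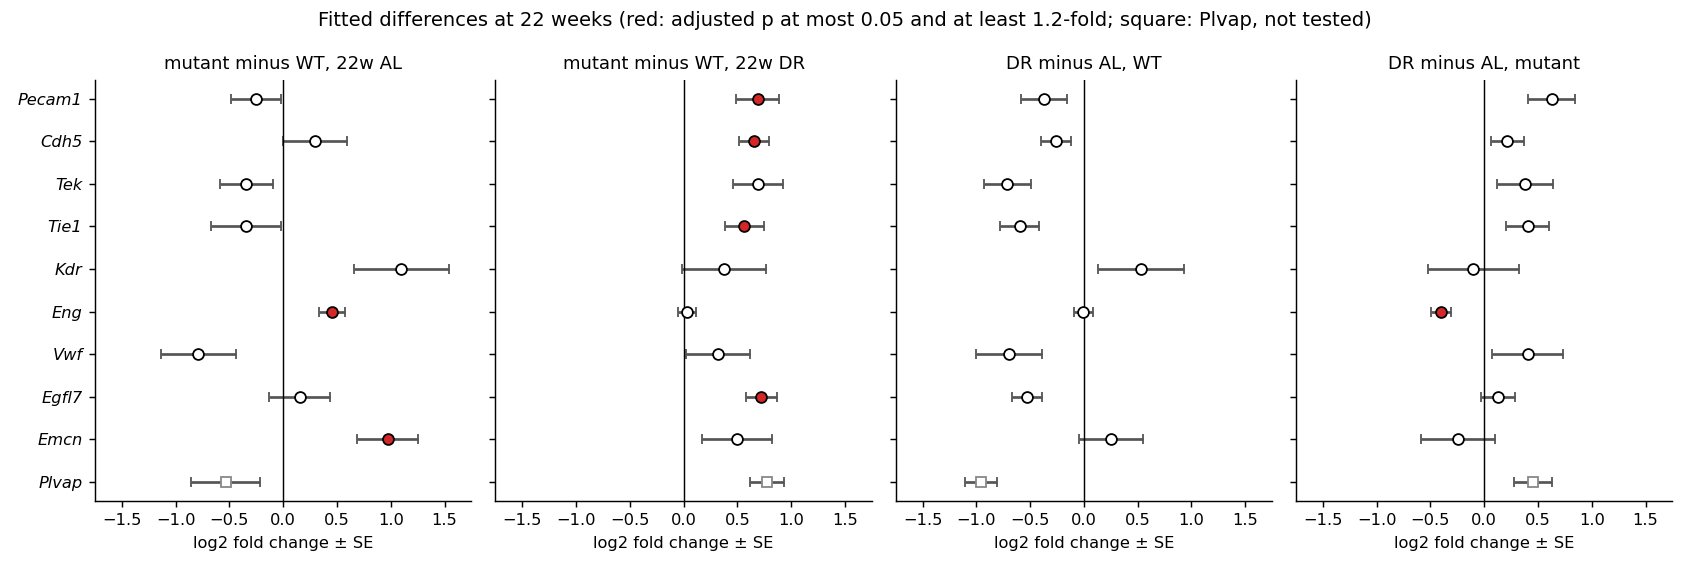
Log2 fold changes with standard errors of the 10 genes in 4 comparisons at 22 weeks, from the edgeR fit. On DR all 10 estimates of Ercc1 mutant minus WT are positive with 4 filled red (called), on AL they fall on both sides of 0 with Eng and Emcn filled, and the DR minus AL panel of WT mice is mostly left of 0 while that of mutants is mostly right of 0.

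The effect of DR was examined within each genotype, in comparisons that share their AL and DR samples with those of genotype above. In WT mice none of the 9 members passed the test (edgeR), against 1.28% of all tested genes, and 4 had an unadjusted p under 0.05. The estimates were negative for 7 of 9, with a median of -0.37 beside 0.01 for all genes. Egfl7 came nearest, with 74.7, 91.5, 106.8 and 109 normalized counts on AL and 56.0 to 77.9 on DR (-0.53 ± 0.14, adjusted p = 0.054), and 4 of 5 DR mice lay below all AL mice. It passed with DESeq2 (adjusted p = 0.025), with RLE size factors (adjusted p = 0.049) and with no filter on low counts (adjusted p = 0.024). Tek (-0.71 ± 0.22, adjusted p = 0.15), Tie1 (-0.60 ± 0.18, adjusted p = 0.13) and Vwf (-0.69 ± 0.31, adjusted p = 0.37) had larger negative estimates with larger errors. Without WT sample 007, Tek, Tie1 and Egfl7 all passed. The 2 positive estimates were those of Kdr (0.53 ± 0.40) and Emcn (0.25 ± 0.30), and Eng was at -0.00 ± 0.09.

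In Ercc1Δ/- mice Eng was the only one of the 9 members to pass, and it was lower on DR, against 1.64% of all tested genes called in either direction and 0.988% called lower. It measured 672 to 789.7 on AL and 475, 499, 514, 536 and 629.7 on DR. All 5 DR mice lay below all 4 AL mice (-0.40 ± 0.09, adjusted p = 0.021, edgeR), and groups did not overlap for 5.02% of all tested genes. The level on DR was thus close to that of WT mice, 515 ± 43.2 (SD, n = 4) on AL and 518 ± 26.9 (n = 5) on DR. The call was lost without Ercc1Δ/- AL sample 013 (-0.32, adjusted p = 0.081) or 026 (-0.41, adjusted p = 0.053). Of the other 8, 6 had positive estimates. The largest was that of Pecam1 with 1212, 1242, 2104 and 2334 on AL and 1850.0 to 3303 on DR (0.63 ± 0.22, adjusted p = 0.17), which passed with DESeq2 (adjusted p = 0.045). Macrophage markers were lower on DR in the same mice (3 of 5 called, C1qa -0.99 ± 0.13), with a summed level of 541 to 1132 against 818 to 1579 on AL, and their part in the Eng difference was not tested.

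Described side by side, the change on DR in Ercc1Δ/- mice minus that in WT mice was positive for Plvap and 6 others and negative for 3. The estimates were 1.41 ± 0.23 for Plvap, 1.1 ± 0.46 for Vwf, 1.09 ± 0.34 for Tek, 1.00 ± 0.31 for Pecam1, 1.00 ± 0.27 for Tie1, 0.66 ± 0.21 for Egfl7 and 0.48 ± 0.21 for Cdh5. They were -0.63 ± 0.59 for Kdr, -0.49 ± 0.46 for Emcn and -0.40 ± 0.12 for Eng. The median of the 9 other than Plvap was 0.66, beside -0.01 for all tested genes, of which 47.8% were positive. Plvap, chosen for this difference, had the largest estimate of the 10.

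Plvap was lower on DR in WT mice (-0.95 ± 0.15) and higher in Ercc1Δ/- mice (0.45 ± 0.18). WT mice had 114, 117, 135 and 201 normalized counts on AL and 54.1 to 98.3 on DR, with all 5 DR mice below all 4 AL mice (groups did not overlap for 5.14% of all tested genes). Ercc1Δ/- mice had 78.1, 94.6, 113 and 125 on AL and 75.3 to 205 on DR, with 2 DR mice above and 1 below all AL mice. To ask how much of this Plvap shares with the endothelial genes in general, its log2 CPM was set against the mean log2 CPM of the other 9 members in each mouse.

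In WT mice this relative level of Plvap was -0.66 ± 0.32 on AL (SD, n = 4) and -1.25 ± 0.27 on DR (n = 5), a change of -0.59. In Ercc1Δ/- mice it was -1.26 ± 0.09 on AL (n = 4) and -1.01 ± 0.43 on DR (n = 5), a change of 0.25. At 6 weeks it was -0.94 ± 0.39 in WT and -1.01 ± 0.42 in Ercc1Δ/- mice (n = 5 each). In WT mice the AL values (-0.96 to -0.21) and DR values (-1.59 to -0.88) overlapped in 1 mouse on each side. In Ercc1Δ/- mice the AL values (-1.36 to -1.14) lay within the DR range (-1.57 to -0.41). With 20 other endothelial genes as the reference the changes were -0.53 and 0.26. By the same plain group means of log2 CPM, without the sex term of the fit, the change on DR in Ercc1Δ/- mice minus that in WT mice was 1.15 for Plvap alone, 0.31 for the mean of the other 9 and 0.84 for Plvap relative to them. That mean joins genes of opposite sign. In the fit, 6 of the 9 had estimates of 0.48 to 1.1, and Kdr, Emcn and Eng had -0.63 to -0.40. The 0.84 is thus not a distance from the 6, and Plvap was chosen for its difference.

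**Figure D3:**
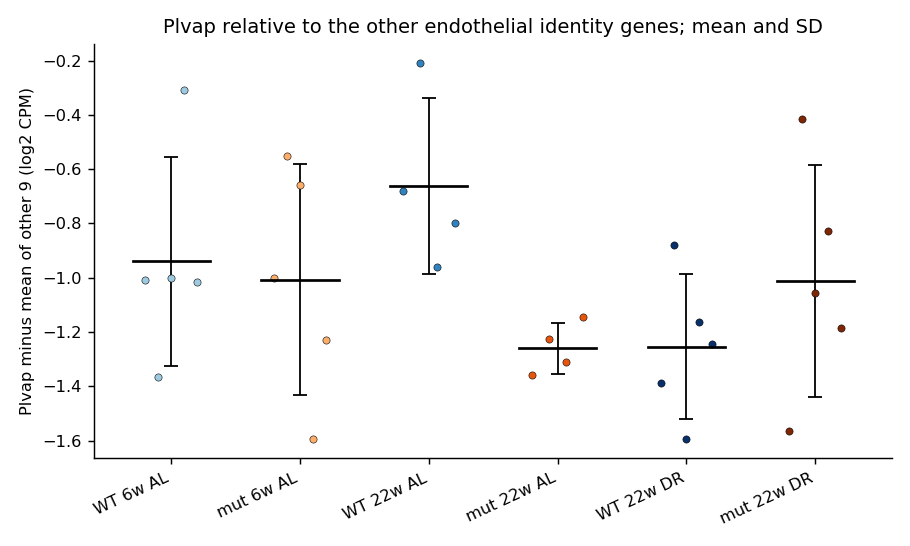
Log2 CPM of Plvap minus the mean log2 CPM of the other 9 endothelial identity genes in each of 28 mice, by group, with the group mean and SD. WT mice of 22 weeks fall from -0.66 on AL to -1.25 on DR, while Ercc1 mutants go from -1.26 to -1.01 with a wide spread on DR.

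Age was compared on AL. From 6 to 22 weeks none of the 9 members passed in WT mice, against 0.235% of all tested genes, and none had an unadjusted p under 0.05. In Ercc1Δ/- mice none passed either, against 4.69% of all tested genes, and 2 had an unadjusted p under 0.05. These were Emcn (log2 fold change 0.73 ± 0.28, adjusted p = 0.15) and Eng (0.27 ± 0.12, adjusted p = 0.21), the same 2 that were higher than in WT mice at 22 weeks. Eng ranged from 457 to 667 at 6 weeks and from 672 to 789.7 at 22 weeks in Ercc1Δ/- mice, and was the 1 of 9 whose groups did not overlap, against 6.78% of all tested genes. Tie1 had the lowest estimate in Ercc1Δ/- mice (-0.61 ± 0.31, adjusted p = 0.34) and passed without sample 023 of 6 weeks (-0.87, adjusted p = 0.019). The difference between the genotypes in the change with age passed for none of the 9, against 0.842% of all tested genes, with 2 at an unadjusted p under 0.05 and the lowest adjusted p of 0.34 for Eng (0.41 ± 0.16). Without sample 023, Tie1 passed (-1.22, adjusted p = 0.040). DESeq2 called none in any of these 3.

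Whether the members rise and fall together from mouse to mouse was examined on log2 CPM with the group means removed, over the 28 samples and all 45 pairs, with permutation within groups (100000 resamples, two-sided) and Benjamini-Hochberg adjustment over the 45 pairs. Of the 45 pairs, 23 had an adjusted p of at most 0.05. The members fell into unequal company. Pecam1, Tek, Tie1, Vwf, Plvap and Egfl7 correlated in all 15 of their pairs, with r between 0.54 and 0.89. Of these 15, the pairs Tek with Plvap (r 0.460) and Vwf with Egfl7 (r 0.483) did not pass once sex was also removed, and Vwf with Egfl7 (r 0.491) and Pecam1 with Egfl7 (r 0.415) did not pass with sample 003 added. The closest pair was Pecam1 with Vwf (Pearson r 0.885, Spearman rho 0.841, permutation p = 2e-05 and 3e-05, adjusted 0.00045 and 0.00056, n = 28). Without the 2 mice farthest from the median of Pecam1 their r was 0.822. Egfl7 with Tie1 reached r 0.840 (rho 0.818, permutation p = 5e-05 and 4e-05, adjusted 0.00045 and 0.00056), or 0.780 without the 2 farthest mice.

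Tie1 was the best connected member, with 8 of its 9 pairs past the threshold, the exception being Kdr (r 0.199). With sample 003 added, its pairs with Cdh5 (r 0.509) and Eng (r 0.522) did not pass. Tek and Tie1, which act as one receptor complex, had r 0.737 (rho 0.787, permutation p = 4e-05 and 5e-05, adjusted 0.00045 and 0.00056), or 0.657 without the 2 farthest mice. Cdh5 went with Tie1 (r 0.779) and Eng (r 0.765), the latter with rho 0.716, permutation p = 0.00044 and 0.00071, adjusted 0.0017 and 0.0025, and r 0.672 without the 2 farthest mice. Cdh5 was less close to the other junction gene Pecam1 (r 0.297, rho 0.321, permutation p = 0.20 and 0.12, adjusted 0.30 and 0.18).

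Kdr stood apart. Of its 9 pairs only that with Cdh5 passed (r 0.528, rho 0.567, permutation p = 0.012 and 0.0063, adjusted 0.028 and 0.016, r 0.603 without the 2 farthest mice), which did not pass with sex removed (r 0.492), and with Pecam1 (r -0.137) and Vwf (r -0.065) it was near 0. Emcn passed with Tie1 (r 0.376) and Egfl7 (r 0.370) alone, and neither passed with a prior count of 0.5 (r 0.360 and 0.354). Emcn had a median of 28.5 raw counts, and the part of low counts in its correlations was not tested.

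Kdr instead varied with fat cell markers. Against the mean of 7 fat cell markers (Adipoq, Plin1, Lep, Cidec, Cfd, Ucp1 and Cidea), centred in the same way, Kdr had r 0.720 (rho 0.742, permutation p = 2e-05 and 6e-05, adjusted over 20 pairs 0.00040 and 0.0012), and r 0.71 without the 2 mice with the most extreme fat marker level. Cdh5 was the only other member past the threshold (r 0.581, rho 0.612, permutation p = 0.0037 and 0.0025, adjusted 0.025 and 0.017, r 0.558 without the 2 farthest mice). The other 8 had r between -0.06 and 0.44. Against 4 heart muscle markers, Emcn alone passed (r 0.603, rho 0.646, permutation p = 0.00099 and 0.00096, adjusted 0.0099 and 0.0096, r 0.605 without the 2 farthest mice). These 20 relations were chosen after the values were seen. Sex was left in them, and its part was not tested. In WT mice at 6 weeks and on DR both females had more Kdr than all 3 males. In AL-fed WT mice of 22 weeks the 1 female had less than all 3 males. In WT mice on DR the centred fat marker means were also higher in both females (1.45 and 0.80) than in all 3 males (-1.20 to -0.51). Sex and fat markers cannot be told apart in that group. In WT mice of 6 weeks the fat marker means of the sexes overlapped. All such correlations share the library, its depth and its scaling between both genes.

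**Figure D4:**
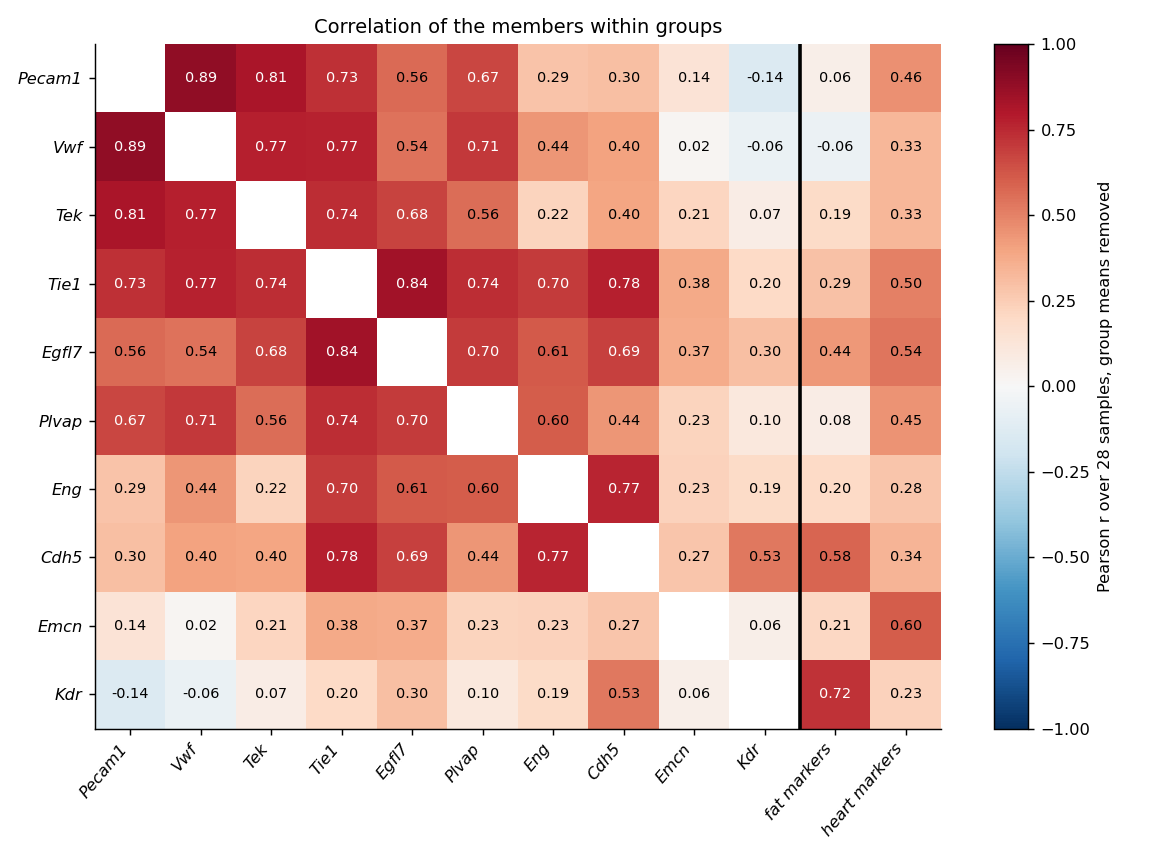
Pearson r between the 10 members, and with the means of 7 fat cell and 4 heart muscle markers (right of the line), on log2 CPM with group means removed, over 28 samples. A block of Pecam1, Vwf, Tek, Tie1, Egfl7 and Plvap has r of 0.54 to 0.89, while the Kdr row is pale except for Cdh5 (0.53) and the fat markers (0.72).

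**Figure D5:**
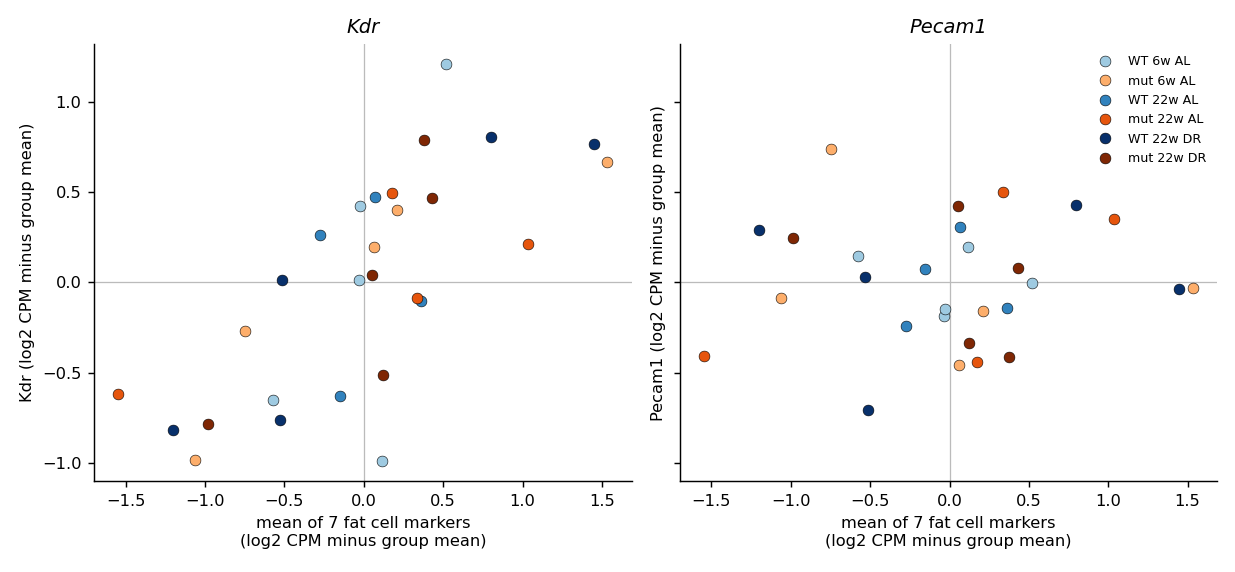
Kdr (left) and Pecam1 (right) against the mean of 7 fat cell markers, each as log2 CPM minus the group mean, 1 point per mouse and coloured by group. Kdr rises with the fat markers (r 0.72) and Pecam1 does not (r 0.06).

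Over all 28 samples, groups included, the genes most like Plvap in log2 CPM were Podxl (r 0.805), a sialomucin of the endothelial surface, Mmrn2 (r 0.80), a matrix glycoprotein of endothelium, Itgb4 (r 0.784), an integrin subunit, Fgd5 (r 0.756), an exchange factor for a small GTPase, and Ecscr (r 0.753), an endothelial surface protein. The genes most like the mean of the other 9 were Ccm2l (r 0.882), Hspa12b (r 0.849), Esam (r 0.849), an endothelial adhesion molecule, Notch4 (r 0.820), the Notch receptor of endothelium, and Clic5 (r 0.817). No gene was among the top 5 of both. These are descriptions over 28 samples that share libraries and groups.

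A list of 20 other pan-endothelial genes moved much as the members did. It was measured in the same mice and libraries, so its estimates are not independent of those of the members. On DR it was higher in Ercc1Δ/- mice for 19 of 20 estimates (median 0.57). Of the 20, 5 were called higher and none lower, against 5.97% of all tested genes called higher. The 4 with the smallest p were Esam (0.84 ± 0.13, adjusted p = 5.9e-05), the tight junction gene Cldn5 (1.04 ± 0.18, adjusted p = 0.00035), S1pr1, the receptor of sphingosine-1-phosphate (1.17 ± 0.21, adjusted p = 0.00080), and Adgrl4 (1.14 ± 0.34, adjusted p = 0.036). On AL at 22 weeks 3 of 20 were called higher and none lower, against 5.88% of all tested genes called higher. The 3 were Cyyr1 (1.69 ± 0.45, adjusted p = 0.015), Flt1 (0.54 ± 0.15, adjusted p = 0.021), which is VEGF receptor 1, and Adgrl4 (1.5 ± 0.43, adjusted p = 0.034). The median was 0.24, with 8 of 20 estimates negative. DR against AL gave no call in either genotype, where 1.28% (WT) and 1.64% (Ercc1Δ/-) of all tested genes were called. Estimates were negative for 16 of 20 in WT mice (median -0.36) and positive for 11 of 20 in Ercc1Δ/- mice (median 0.11).

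Lists of endothelial subtypes were thinner. Of all tested genes, 13.0% were called between the genotypes on DR, 12.0% on AL at 22 weeks and 1.70% at 6 weeks. Of 9 arterial genes, Sema3g alone was called on DR, as higher in Ercc1Δ/- mice (1.09 ± 0.21, adjusted p = 0.00074). The arterial estimates were mixed there, with 6 positive and 3 negative (median 0.14). On AL at 22 weeks the ligand gene Efnb2 alone was called, as lower in Ercc1Δ/- mice (-0.51 ± 0.13, adjusted p = 0.011). There 4 estimates were positive and 5 negative (median -0.24), with Sema3g at 0.99. Of 8 tested capillary genes, Btnl9 (1.38 ± 0.42, adjusted p = 0.039) and Gpihbp1 (1.16 ± 0.36, adjusted p = 0.042), which anchors lipoprotein lipase, were higher in Ercc1Δ/- mice on AL at 22 weeks, with 7 of 8 estimates positive and a median of 1.21. Apln, the ligand of the apelin receptor, was higher in Ercc1Δ/- mice at 6 weeks (2.58 ± 0.48, adjusted p = 0.0059) and on DR (2.46 ± 0.61, adjusted p = 0.0073). It was the only capillary gene called in either, with 6 of 8 estimates positive in each. Of 3 tested lymphatic genes, Pdpn (0.99 ± 0.22, adjusted p = 0.0032) and Lyve1 (0.67 ± 0.18, adjusted p = 0.021) were higher in Ercc1Δ/- than in WT mice on DR. On AL at 22 weeks all 3 estimates were positive too (median 0.83), with none called. However, Prox1, the defining lymphatic factor, had no counts in 14 of 28 samples, and both called genes are also made by other cells. Of 3 tested venous genes none was called in these comparisons.

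Among the ligands and partners of the members, 14 of 18 were tested. Ptprb and Flt1 also belong to the list of other pan-endothelial genes above, so their calls are counted in both lists. At 22 weeks on AL, 3 of the 14 were called higher in Ercc1Δ/- mice and 1 lower. Of all tested genes, 12.0% were called there, and 5.88% as higher. On DR, 3 of the 14 were called higher in Ercc1Δ/- mice and none lower, against 13.0% of all tested genes called and 5.97% called higher. Nrp1, a co-receptor of Kdr, was higher in Ercc1Δ/- mice at 22 weeks on AL (0.47 ± 0.11, adjusted p = 0.0059) and on DR (0.36 ± 0.11, adjusted p = 0.038). Nrp2 was higher on AL (1.01 ± 0.25, adjusted p = 0.011), as was Flt1, and the lymphatic growth factor Vegfd was lower (-0.72 ± 0.22, adjusted p = 0.041). On DR, Pgf, which binds Flt1, was higher (1.58 ± 0.32, adjusted p = 0.0024), and so was Ptprb, the phosphatase that acts on Tek (0.73 ± 0.22, adjusted p = 0.038). The angiopoietins Angpt1 and Angpt2 and the Kdr ligand Vegfa did not pass in any comparison of genotype or diet. Bmp10, a ligand of the endoglin complex, and Adamts13, which cleaves the Vwf protein, had no counts in any of the 28 samples.

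Among markers of the other cells that make members of this list, those of platelets and lymphocytes gave few counts, whereas macrophage markers summed to 274 to 1579 and 5 fibroblast markers to 8426 to 13319 over all mice. Of 5 platelet and megakaryocyte genes 3 were tested, and none was called in any comparison of genotype, age or diet. In those comparisons 0.235% to 13.0% of all tested genes were called. The 5 genes had a summed level of 22.3 to 239 over all mice, and Gp9 and Gp1bb had no counts in 15 and 27 samples. All 4 lymphocyte markers were below the filter, with sums of at most 24.2.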

How the data were processed

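RNA of 29 mouse aortic arches was sequenced with unique molecular identifiers after preparation with a directional kit. The authors removed duplicates with UMI-tools 1.1.2, aligned to GRCm39 with STAR 2.7.10a and counted reads over whole gene bodies of Ensembl genes with HTSeq 2.0.2. The deposited values are raw counts per gene. The strand setting of the counting is not given in the sources used here. The 5 lines of unassigned reads (12.6 to 20.5% of a library) were left out. Sample 003 was left out as in the study.

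The filter kept a gene if over 10 of the 28 samples had over 10 counts of it. TMM scaling and the quasi-likelihood F test of edgeR 4.0.16 (R 4.3.3) were used, and sex was a covariate beside group. The 18 AL samples formed one fit and the 18 samples of 22 weeks another. A gene was called where its Benjamini-Hochberg adjusted p did not exceed 0.05 and its change reached 1.2-fold. Each library came from 1 mouse. Correlations used log2 CPM with a prior count of 2. The scripts were tested on simulated data. Alternatives were DESeq2 1.42.0, RLE size factors, no filter, no sex term, all 6 groups in 1 fit, sample 003 added, thinning to 921167 counts, a prior count of 0.5 and leaving out each sample. Removing sex from the correlations among members was added after the data were seen. All members were named, with the 5 genes most like Plvap and like the mean of the other 9, and genes of the lists that passed the test. The members and gene lists were chosen with earlier results of these data known. Promoters were read from GRCm39 with the GENCODE annotation.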

Additional observations from a re-analysis of the deposited data

Results flagged for a closer look

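Of 60 combinations of gene and group, 4 had a mouse far from the rest of its group by Dixon's criterion, where chance gives about 5%. In Ercc1Δ/- mice of 6 weeks, sample 008 had 3330.3 normalized counts of Pecam1, against 1952 in the next highest mouse and 1451 in the lowest. The same mouse had 1284 of Vwf, against 557 in the next and 290.3 in the lowest. In AL-fed Ercc1Δ/- mice of 22 weeks, sample 013 had 789.7 of Eng (283 raw counts), against 689.9 in the next, and the Eng calls that involve this group are lost without it. In WT mice on DR, sample 028 had 471 of Eng, against 524 in the next lowest.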

How the results depend on the processing

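No pairing within mice was possible because each mouse gave 1 library and no sample number occurs in more than 1 group. The sample labels name no litter, so litter was not part of any fit. Of 630 gene values recomputed without leaving out a sample, 605 kept their direction and their side of the threshold, as did 121 of 135 correlations. Members called on AL at 22 weeks numbered 1 after thinning. On DR, 2 were called with all 6 groups in 1 fit, no filter, no sex term or sample 003 added. DR in WT mice gave 1 with DESeq2, RLE or no filter, and DR in Ercc1Δ/- mice 2 with DESeq2 and 0 after thinning. Leaving out 1 sample gave 0 to 2 at 6 weeks, 1 to 3 on AL, 2 to 5 on DR, 0 to 0 and 0 to 1 for age in WT and Ercc1Δ/- mice, 0 to 3 and 0 to 1 for diet, and 0 to 1 for genotype by age. Small estimates changed sign. After thinning, Tek at 6 weeks was -0.14, Egfl7 on AL -0.0241, Egfl7 with age in Ercc1Δ/- mice 0.0195 and Eng with DR in WT mice 0.0080. Eng with DR in WT mice was 0.0048 in 1 fit and 0.0059 without sex, and Eng on DR was -0.0291 with no filter. The r of Tek and Kdr was -0.0188 with sample 003 and -0.119 with sex removed, and that of Kdr and Plvap -0.0581 with sex removed. Leaving out 1 sample moved the log2 fold changes across 0 for Tek (-0.0908 to 0.22) and Eng (-0.0311 to 0.12) at 6 weeks, Egfl7 on AL (-0.0293 to 0.29), Eng on DR (-0.0260 to 0.0648), Cdh5 with age in WT (-0.0296 to 0.17), Tek (-0.30 to 0.0940), Vwf (-0.43 to 0.29) and Egfl7 (-0.31 to 0.0827) with age in Ercc1Δ/- mice, Eng (-0.0513 to 0.0288) and Emcn (-0.00897 to 0.36) with DR in WT, and Kdr with DR in Ercc1Δ/- mice (-0.41 to 0.16). The causes were not tested. Emcn had the fewest counts of the 10 members, with a median of 28.5 raw counts.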
